A study of Rattus norvegicus with 3 samples.

Results

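Glutamate receptor genes, the genes of their auxiliary subunits and the genes of the scaffold proteins that anchor them were examined in cultured rat commissural neurons, the spinal neurons whose axons cross the midline. The members were chosen by a rule on gene names, and all 49 named genes were found among the 26353 entries of the deposited table. They comprise 18 ionotropic subunits, 8 metabotropic receptors, 10 auxiliary subunits and 13 scaffold proteins. Polyadenylated RNA came from spinal cord neurons of rat embryos taken at embryonic day 13 and grown for 2 days. The series has 1 group of 3 libraries, numbered 1 to 3 as in the labels, with no treatment, genotype or control, and neither strain nor sex is used here. The labels do not say whether separate cultures or animals gave the libraries, so p-values rest on a spread between samples that may be technical only.

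Glutamate is the main fast excitatory transmitter of the spinal cord. Ionotropic receptors are tetrameric ion channels: AMPA receptors carry most fast current, kainate receptors act on both sides of the synapse, NMDA receptors admit calcium when glutamate and a co-agonist bind together, and delta receptors act mainly as adhesion partners of cerebellins. Metabotropic receptors couple to G proteins. Auxiliary subunits such as cornichons, Neto and Shisa proteins set the trafficking and gating of the channels, and scaffolds with PDZ domains (Dlg, Shank, Grip, Pick1) or EVH1 domains (Homer) hold receptors at the membrane.

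Levels are FPKM (fragments per kilobase, scaled to the mapped fragments) as the authors deposited them, a scale per length used here to compare genes. The intervals and p-values below rest on the spread between libraries. They do not hold errors of transcript length, annotation or read assignment, which differ from gene to gene. FPKM gives no absolute depth. Summed FPKM was 433285, 477484 and 430187 in libraries 1 to 3 without the 62 entries that exceeded 10000 in any library. Over all entries it was 25032147, 19897930 and 26236642, so that library 2 had the highest sum without these entries and the lowest with them. Pearson's r of log2 values across the 49 members was 0.987 to 0.993 between libraries, over genes, which are not independent replicates. Markers of the labelled neurons were present, beside those of other cells. All 8 neuronal and all 8 commissural markers lay above 1 FPKM (limma, Benjamini-Hochberg adjusted), as did all 8 progenitor and all 4 GABA and glycine markers. Of the astrocyte markers 3 of 6 passed and 3 lay below 1 FPKM. Slc1a2 had 27.16, 24.72 and 27.83 FPKM, the most of that list, while Gfap had 0.06, 0 and 0.03 and Aqp4 0.06, 0.05 and 0.04. Of the other lists, 2 of 6 microglia and macrophage, 1 of 7 oligodendrocyte and 1 of 6 sensory ganglion markers passed. Summed over a list, markers reached 2233 to 2477 FPKM for neurons, 289 to 367 for commissural neurons, 955 to 1211 for progenitors and 80.95 to 93.91 for GABA and glycine neurons. The sums were 35.8 to 37.5 FPKM for astrocytes, 8.43 to 13.3 for microglia and macrophages, 3.41 to 3.87 for oligodendrocytes and 2.71 to 2.78 for sensory ganglia. The cell source of each transcript is not known, and in bulk RNA fewer cells of a type and less RNA per cell cannot be told apart.

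Most of the glutamate receptor machinery was present. Of the 49 genes, 39 (79.6%) passed as higher than 1 FPKM when limma's moderated test, one-sided, was run on log2(FPKM + 0.1) and adjusted by Benjamini-Hochberg over the 17611 entries with a value above 0, against 63.7% of those entries. A further 8 lay below 1 FPKM (limma, Benjamini-Hochberg adjusted), against 30.8% of the entries, and Neto1 and Shank2 could not be placed on either side. The median mean level of the 49 was 5.12 FPKM, close to 4.81 FPKM over all tested entries. By class, 15 of 18 ionotropic subunits, 5 of 8 metabotropic receptors, 7 of 10 auxiliary subunits and 12 of 13 scaffold genes lay above 1 FPKM. Mean levels spread from 142 FPKM for Cnih2 to 0.0600 FPKM for Grin2c, with 3 genes at 50 FPKM or more, 13 from 10 to 50, 23 from 1 to 10 and 10 under 1.

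**Figure D1:**
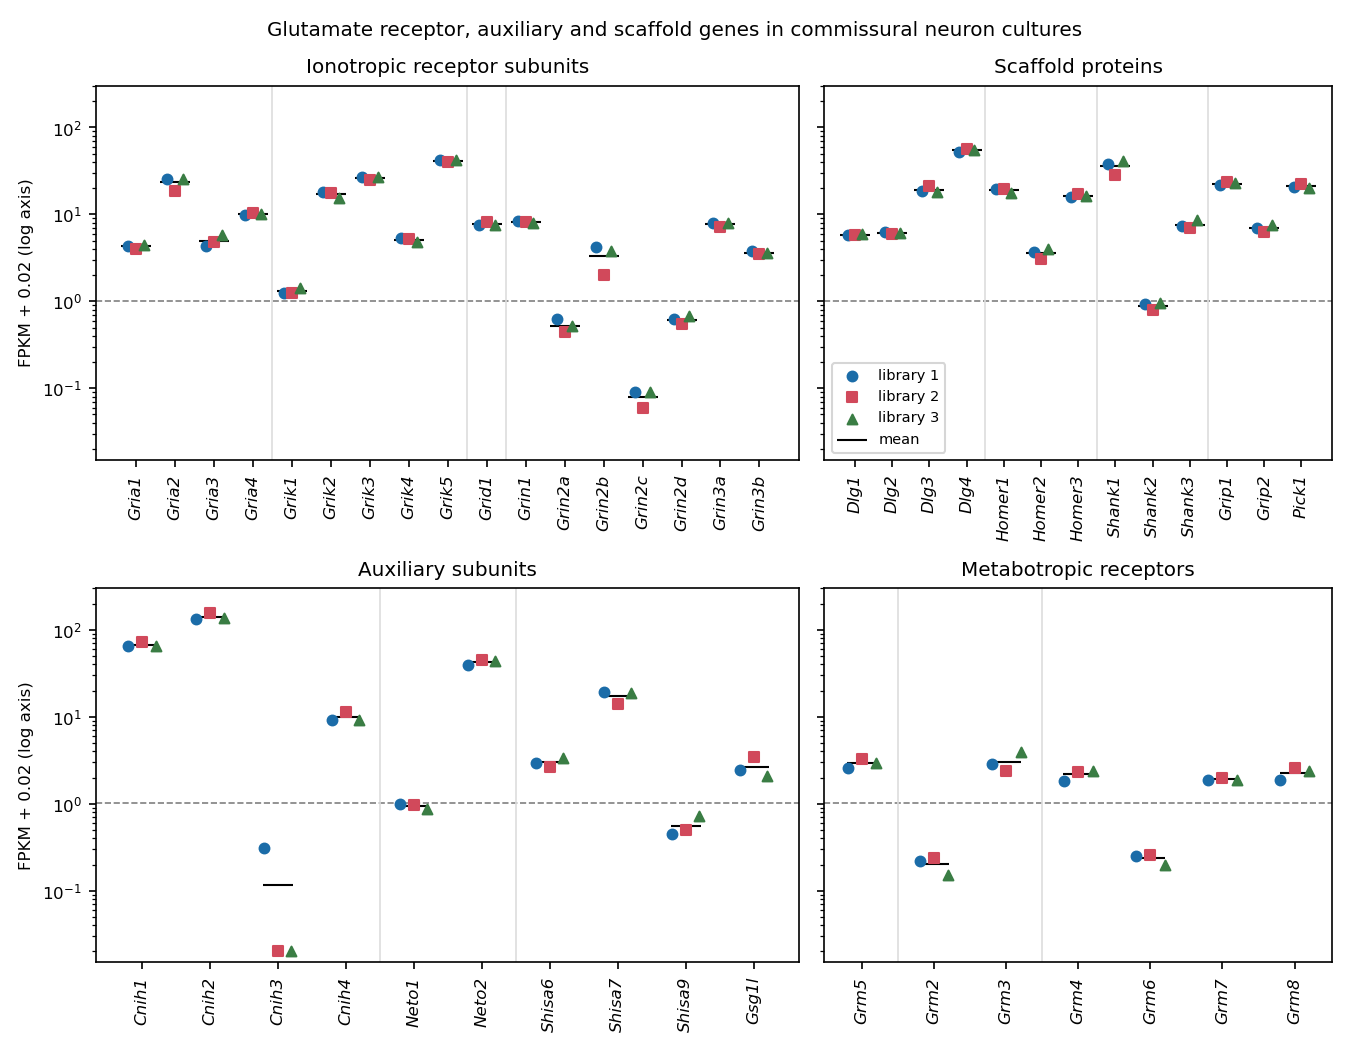
FPKM of 47 of the 49 genes in libraries 1, 2 and 3 (points) with the mean (black bar), on a log axis after adding 0.02 so that values listed at 0 can be drawn; the dashed line marks 1 FPKM. Cnih2 stands highest at 142 FPKM, the means of the metabotropic receptors drawn lie between 0.183 and 3.03 FPKM, and the 3 libraries lie close together for most genes.

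The AMPA receptor subunits were all expressed, with Gria2 the most abundant. Gria2 encodes GluA2, the subunit whose RNA is edited and which then makes AMPA channels nearly impermeable to calcium. Gria2 (ENSRNOG00000028589) had 25.8, 18.7 and 25.5 FPKM in libraries 1, 2 and 3, a mean of 23.3 ± 4.02 (SD, n = 3), with library 2 the lowest. Gria4, known from early and fast synapses, had 9.86, 10.4 and 10.2 FPKM. Gria3 had 4.35, 4.77 and 5.80 FPKM, and Gria1, best known for activity-dependent insertion, 4.33, 4.03 and 4.44. No library of Gria2 overlapped any library of the other AMPA subunits. Within each library, Gria2 exceeded Gria4 by 2.27-fold in 3 of 3 libraries (95% interval 1.84 to 2.80; adjusted p = 1.24e-04, limma with Benjamini-Hochberg). Folds here and below come from log2(FPKM + 0.1), a scale that makes those of low genes too small, and their p-values are adjusted over the 69 pairs of related genes. It exceeded Gria3 by 4.60-fold (3.63 to 5.81). Gria1 and Gria3 did not differ past the threshold (Gria1 over Gria3 0.866-fold, interval 0.715 to 1.05; adjusted p = 0.129, limma with Benjamini-Hochberg), and Gria1 was the lower in 3 of 3 libraries. Gria2 made up 54.4 ± 4.53% of the summed AMPA FPKM and Gria4 23.9 ± 2.99% (SD, n = 3). In library 2 the Gria2 level was under the sum of the other 3 AMPA subunits, with a ratio of 0.974, against 1.39 in library 1 and 1.25 in library 3. These are gene levels: they show neither the flip and flop splice forms nor the edited share of Gria2. In the gene family of the editing enzymes, Adar had 20.2 ± 1.07 FPKM, Adarb1, which edits the GluA2 pore site, 4.73 ± 0.339 and Adarb2 1.40 ± 0.0702. In this family 3 of 3 genes lay above 1 FPKM, against 63.7% of all tested entries.

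Kainate receptor subunits held the largest share of ionotropic receptor RNA. Their summed level was 93.3, 88.7 and 91.2 FPKM in libraries 1 to 3, against 44.3, 37.8 and 45.9 for the AMPA subunits, a ratio of 2.15 ± 0.182 (SD, n = 3); this is a description without a test. They made up 54.3 ± 1.40% of the ionotropic sum, AMPA subunits 25.4 ± 1.47% and NMDA subunits 14.2 ± 0.570%. Grik5, which encodes the high-affinity subunit GluK5 that needs a partner among GluK1 to GluK3 to form a channel, had 41.7, 39.7 and 42.5 FPKM. Grik3, a low-affinity subunit, had 27.1, 24.9 and 27.1 FPKM and Grik2, the main GluK2 subunit of many central neurons, 17.9, 17.7 and 15.4. The order Grik5, Grik3, Grik2 was the same in all 3 libraries with no overlap between neighbours. Grik4, the other high-affinity subunit, had 5.12 ± 0.261 FPKM, and Grik1, known from sensory neurons, 1.24, 1.22 and 1.41. All 10 pairs of kainate genes differed past the threshold, as did 90.7% of 14554 pairs of neighbouring table entries. Grik3 over Grik5 was 0.639-fold (interval 0.581 to 0.702; adjusted p = 4.69e-05, limma with Benjamini-Hochberg; lower in 3 of 3 libraries), and this pair and Grik2 over Grik3 (0.644-fold) missed the threshold in a test against a 1.5-fold margin. Grik1 lay above 1 FPKM with an adjusted p of 0.0244 (limma, Benjamini-Hochberg), but not without library 3. The summed level of the high-affinity pair Grik4 and Grik5 was 1.04 ± 0.0322 times that of Grik1, Grik2 and Grik3.

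Of the NMDA receptor genes, the obligatory subunit and both GluN3 genes were well above the level of 1 FPKM, while 3 of the 4 GluN2 genes lay below it. Grin1, which encodes GluN1, had 8.43, 8.16 and 7.94 FPKM. Grin3a, whose GluN3A subunit lowers calcium permeability and is prominent in young neurons, had 7.91, 7.08 and 7.97 FPKM, so that it overlapped Grin1 (Grin1 over Grin3a 1.07-fold, interval 0.924 to 1.24; adjusted p = 0.318, limma with Benjamini-Hochberg). Grin3b, known from motor neurons, had 3.78, 3.47 and 3.59 FPKM. Grin2b, the GluN2 gene typical of embryonic brain, had 4.18, 1.97 and 3.75 FPKM, a coefficient of variation of 35.5%, the largest of the 39 members with a mean of at least 1 FPKM, whose median was 6.54%. Library 2 stood apart here, and with all 3 libraries Grin2b averaged 3.30 ± 1.17 FPKM. The other GluN2 genes were low in every library. Grin2d, an embryonic subunit of brainstem and spinal cord, had 0.60, 0.53 and 0.66 FPKM, Grin2a, typical of mature synapses, 0.60, 0.42 and 0.50, and Grin2c, known from cerebellum, 0.07, 0.04 and 0.07. Each of these 3 lay below 1 FPKM (limma, Benjamini-Hochberg adjusted p = 0.00562 for Grin2d, 0.00195 for Grin2a and 1.84e-06 for Grin2c). Grin2a over Grin2b was 0.186-fold (interval 0.128 to 0.269; adjusted p = 5.48e-05, limma with Benjamini-Hochberg; lower in 3 of 3 libraries). Grin2b made up 72.9 ± 5.50% of the GluN2 sum. The GluN3 genes summed to 11.7, 10.6 and 11.6 FPKM, against 5.45, 2.96 and 4.98 for the GluN2 genes, and the GluN3 sum was the higher in 3 of 3 libraries. Of 21 NMDA pairs, 18 (85.7%) differed past the threshold, against 90.7% of 14554 pairs of neighbouring table entries. Besides Grin1 with Grin3a, the exceptions were Grin2a with Grin2d and Grin2b with Grin3b, whose log2 ratio of -0.19 turned to 0.10 without library 2.

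**Figure D2:**
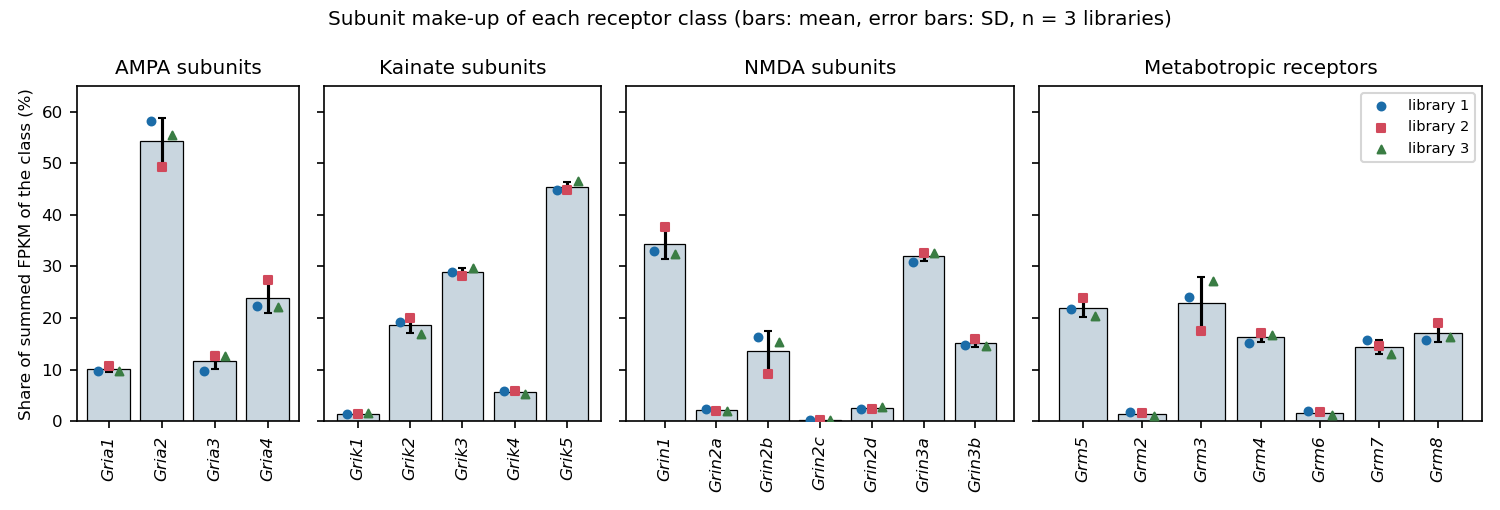
Share of genes in the summed FPKM of their class, in percent, for AMPA, kainate and NMDA subunits and 7 metabotropic receptors; bars are means, error bars SD over 3 libraries and points single libraries. Gria2 (54.4%), Grik5 (45.4%), and Grin1 (34.4%) beside Grin3a (32.1%) lead their classes, and no mean share of these metabotropic receptors exceeds 23.0%.

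Of the delta receptor genes, Grid1, broadly expressed in forebrain, had 7.46, 8.10 and 7.63 FPKM and lay above 1 FPKM (limma, Benjamini-Hochberg adjusted), with the 3 libraries close together. Some of its partners had higher levels: of the cerebellins, which bridge delta receptors to neurexins, Cbln1 had 98.0 ± 4.52 and Cbln2 54.1 ± 3.76 FPKM, Cbln4 3.17 ± 0.295, and Cbln3 was listed at 0.05, 0 and 0. Among the neurexins Nrxn2 had 131 ± 2.34 and Nrxn3 15.6 ± 2.24 FPKM. Of the 7 partners 6 lay above 1 FPKM, against 63.7% of all tested entries, and 1, Cbln3, below 1 FPKM (limma, Benjamini-Hochberg adjusted).

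The metabotropic receptors were low as a class. Their summed level was 11.8, 13.5 and 14.2 FPKM in libraries 1 to 3, against 173, 159 and 172 for the ionotropic subunits. In group I, which couples to phospholipase C, Grm5 had 2.56, 3.23 and 2.90 FPKM, all above 1 FPKM. In group II, which inhibits adenylyl cyclase, Grm3, found in neurons and astroglia, had 2.84, 2.37 and 3.87 FPKM, with library 3 the highest. Grm2, a presynaptic receptor, had 0.20, 0.22 and 0.13 FPKM and lay far below Grm3 in each library. Group III, also inhibitory, held 3 genes at similar levels: Grm8 with 1.85, 2.56 and 2.33 FPKM, Grm4 with 1.79, 2.30 and 2.38, and Grm7, a receptor of presynaptic active zones, with 1.84, 1.97 and 1.84. None of the 3 pairs among Grm4, Grm7 and Grm8 passed (limma, Benjamini-Hochberg adjusted p = 0.149 to 0.653), with intervals of 0.898 to 1.42 for Grm4 over Grm7, 0.790 to 1.17 for Grm4 over Grm8 and 0.677 to 1.07 for Grm7 over Grm8. Grm6, the receptor of retinal ON bipolar cells, had 0.23, 0.24 and 0.18 FPKM. Grm2 and Grm6 lay below 1 FPKM, and Grm3, Grm4, Grm5, Grm7 and Grm8 above it (limma, Benjamini-Hochberg adjusted). The progenitor and glial genes Slc1a3, at 22.04 ± 0.660 FPKM, and Gja1, at 6.22 ± 0.721, were present beside Grm3 and Grm5. Of the 6 astrocyte markers, however, 3 lay above 1 FPKM and 3 below it (limma, Benjamini-Hochberg adjusted). The part of such cells in the levels of Grm3 and Grm5 was not tested.

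Auxiliary subunits included the most abundant of the 49 genes. Cornichons aid export of AMPA receptors and slow their closing. Cnih2, the main cornichon of AMPA receptors in brain, had 135, 156 and 135 FPKM, above 97.1% of all tested entries. Cnih1, a broadly expressed cargo receptor of the endoplasmic reticulum, had 65.4, 73.0 and 65.2 FPKM and Cnih4 9.14, 11.4 and 9.28. Cnih3, the other cornichon known from AMPA receptors, was listed at 0.29, 0 and 0. Cnih1 over Cnih2 was 0.478-fold (interval 0.443 to 0.516; adjusted p = 3.48e-06, limma with Benjamini-Hochberg; lower in 3 of 3 libraries). It is unknown whether the 0 values are failed estimates; Cnih3 lay below 1 FPKM (limma, Benjamini-Hochberg adjusted p = 0.00306), but without library 2 this call ended, at limma's Benjamini-Hochberg adjusted p = 0.0580. The Neto proteins, auxiliary subunits of kainate receptors, differed widely. Neto2 had 39.8, 44.9 and 43.7 FPKM and Neto1, which also binds NMDA receptors, 0.98, 0.95 and 0.85. Neto1 over Neto2 was 0.0239-fold (interval 0.0184 to 0.0312; adjusted p = 8.33e-07, limma with Benjamini-Hochberg; lower in 3 of 3 libraries). Of the AMPA receptor auxiliary proteins of the Shisa family, Shisa7, also known as a partner of GABA-A receptors, had 19.1, 13.99 and 18.7 FPKM, Shisa6 2.92, 2.65 and 3.35, and Shisa9 0.43, 0.48 and 0.70. Shisa7 was the lowest in library 2, yet above every library of Shisa6. Shisa9 lay below 1 FPKM (limma, Benjamini-Hochberg adjusted p = 0.00410), and this call too ended without library 2, where limma's Benjamini-Hochberg adjusted p was 0.0831. Gsg1l, a negative modulator of AMPA receptors, had 2.43, 3.4 and 2.09 FPKM, the highest value in library 2.

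The TARP proteins, the AMPA receptor auxiliary family founded by stargazin, were counted beside these members. All 6 lay above 1 FPKM (limma, Benjamini-Hochberg adjusted), against 63.7% of all tested entries. Cacng4 had 83.6 ± 5.04, Cacng7 71.2 ± 5.51, Cacng2, stargazin itself, 13.4 ± 0.602 and Cacng8 5.78 ± 0.333 FPKM, while Cacng3 had 2.39 ± 0.346 and Cacng5 1.44 ± 0.284. Of 13 further genes of AMPA receptor assembly and trafficking, 11 lay above 1 FPKM, against the same 63.7% of entries. They were led by Olfm1 (94.99 ± 3.48), Nsf (34.6 ± 1.36), Nptxr (21.8 ± 0.687) and Porcn (18.7 ± 0.966). At the other end of that list, the activity-regulated gene Arc had 0.797 ± 0.0987 FPKM and passed in neither direction, and the anchoring protein gene Akap5, with 0.577 ± 0.0577, lay below 1 FPKM.

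**Figure D3:**
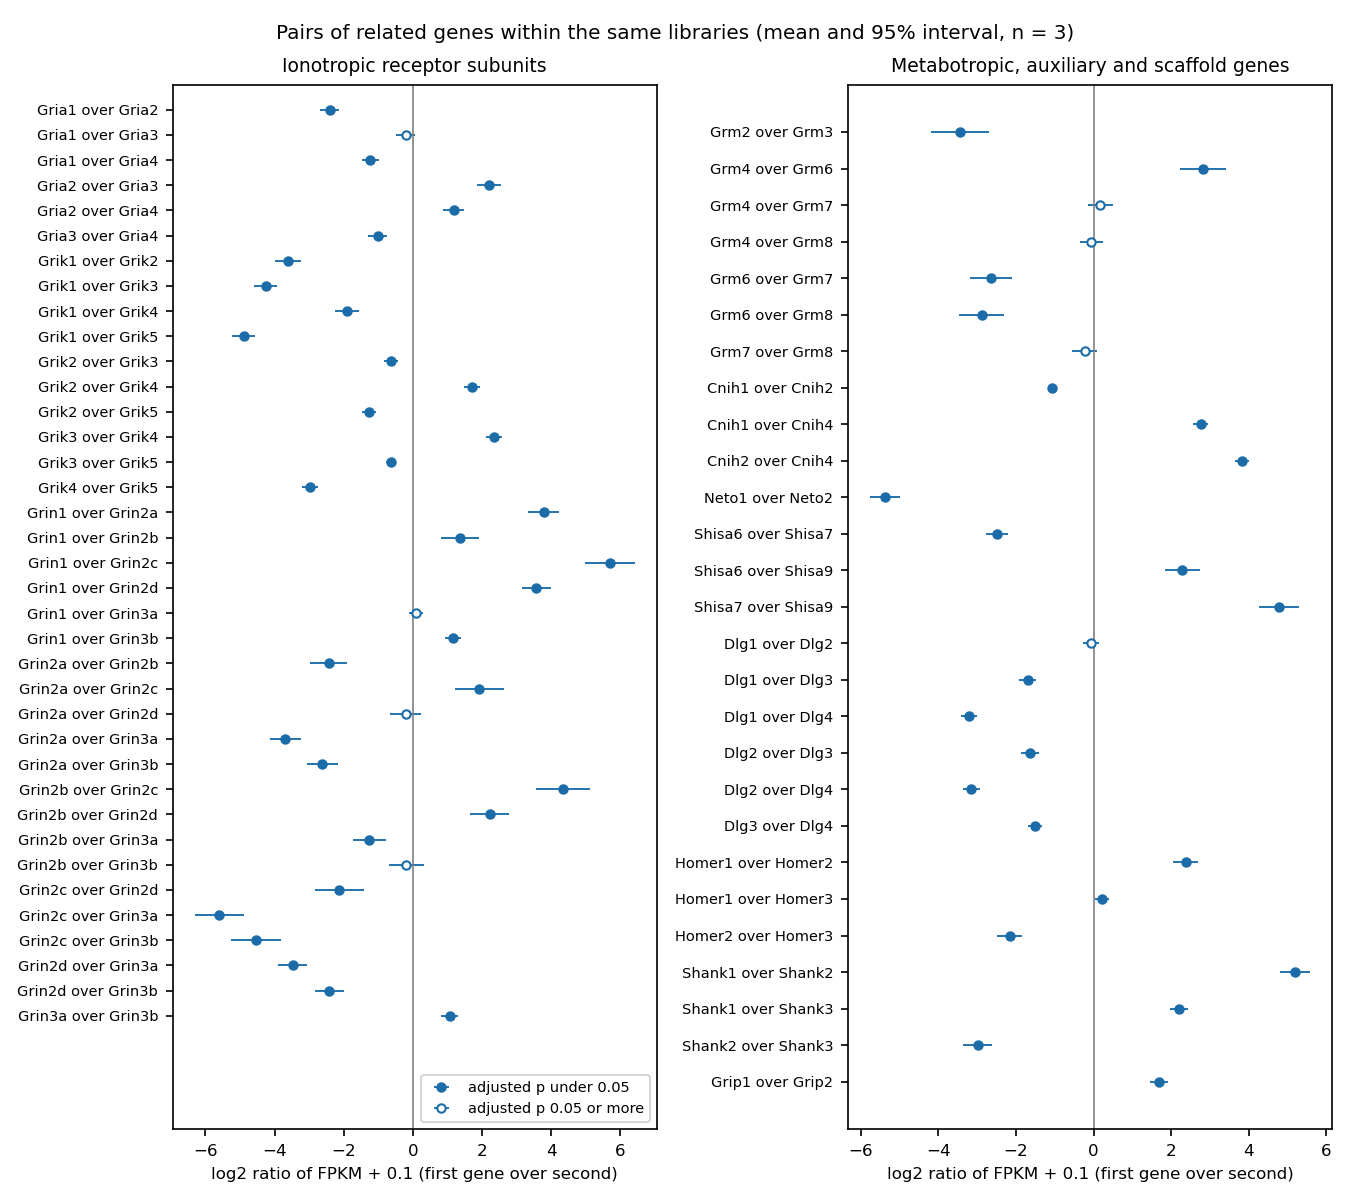
Log2 ratio of FPKM + 0.1 of the first gene over the second, mean and 95% interval over 3 libraries, for 64 of the 69 pairs of related genes, those of Cnih3 being among the 5 not drawn; filled points passed limma's test (adjusted p under 0.05), open points did not. Most intervals lie far from 0, and the open points include Gria1 over Gria3, Grin1 over Grin3a and the pairs among Grm4, Grm7 and Grm8.

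Scaffold genes lay above 1 FPKM in 12 of 13 cases, against 63.7% of all tested entries, and none lay below. Dlg4, which encodes PSD-95, the main scaffold of mature excitatory synapses, had 52.2, 56.4 and 55.8 FPKM, above 91.8% of tested entries. Dlg3, encoding SAP102, known for early synapses, had 18.4, 21.0 and 18.1 FPKM, Dlg2, encoding PSD-93, 6.18, 6.0 and 6.06, and Dlg1, encoding SAP97, 5.70, 5.85 and 5.90. Dlg4 was the highest in each library, and Dlg3 over Dlg4 was 0.351-fold (interval 0.312 to 0.395; adjusted p = 4.49e-06, limma with Benjamini-Hochberg). Dlg1 and Dlg2 did not differ past the threshold (Dlg1 over Dlg2 0.957-fold, interval 0.827 to 1.11; adjusted p = 0.497, limma with Benjamini-Hochberg). Homer1, which links group I metabotropic receptors to Shank and to calcium stores, had 19.8, 19.5 and 17.5 FPKM, Homer3 15.6, 17.3 and 16.2 and Homer2 3.70, 3.07 and 3.98. Homer1 exceeded Homer3 by 1.16-fold (interval 1.02 to 1.31), higher in 3 of 3 libraries (limma, Benjamini-Hochberg adjusted p = 0.0347), but this call ended without library 1 and without library 3. Among the Shank genes, master scaffolds under the Dlg layer, Shank1 had 38.2, 28.6 and 40.8 FPKM, Shank3 7.36, 6.87 and 8.63, and Shank2 0.91, 0.77 and 0.94. Shank1 exceeded Shank3 by 4.63-fold (interval 3.93 to 5.44), higher in 3 of 3 libraries (limma, Benjamini-Hochberg adjusted p = 3.67e-06), and it was lowest in library 2. Grip1, which binds the tail of GluA2, had 21.6, 23.4 and 22.7 FPKM, Pick1, which binds the same tail and takes part in its removal from the surface, 20.4, 22.5 and 20.2, and Grip2 6.98, 6.31 and 7.62.

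Most partners of these scaffolds were present in the same cultures, though not shown to be in the same cells. Of 15 postsynaptic density partners, 14 lay above 1 FPKM (limma, Benjamini-Hochberg adjusted), against 63.7% of all tested entries. Lin7b passed in neither direction, with 0.760, 1.61 and 1.94 FPKM. Lin7c had 69.8 ± 2.86, Cript 54.9 ± 5.80, Dlgap4, which joins Dlg to Shank, 36.5 ± 0.190 and Camk2g 29.5 ± 0.341 FPKM. Dlgap2 had 2.93 ± 0.480 FPKM. Of 7 glutamate transporter genes 4 lay above 1 FPKM, against 63.7% of all tested entries. These were the vesicular transporter Slc17a6 with 39.5 ± 0.859, Slc1a2 with 26.6 ± 1.64, Slc1a3 with 22.04 ± 0.660 and Slc1a1 with 5.76 ± 0.320 FPKM. The other vesicular transporters Slc17a8, with 0.293 ± 0.0569, and Slc17a7, at 0.03, 0 and 0.02, lay below 1 FPKM, as did Slc1a6.

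**Figure D4:**
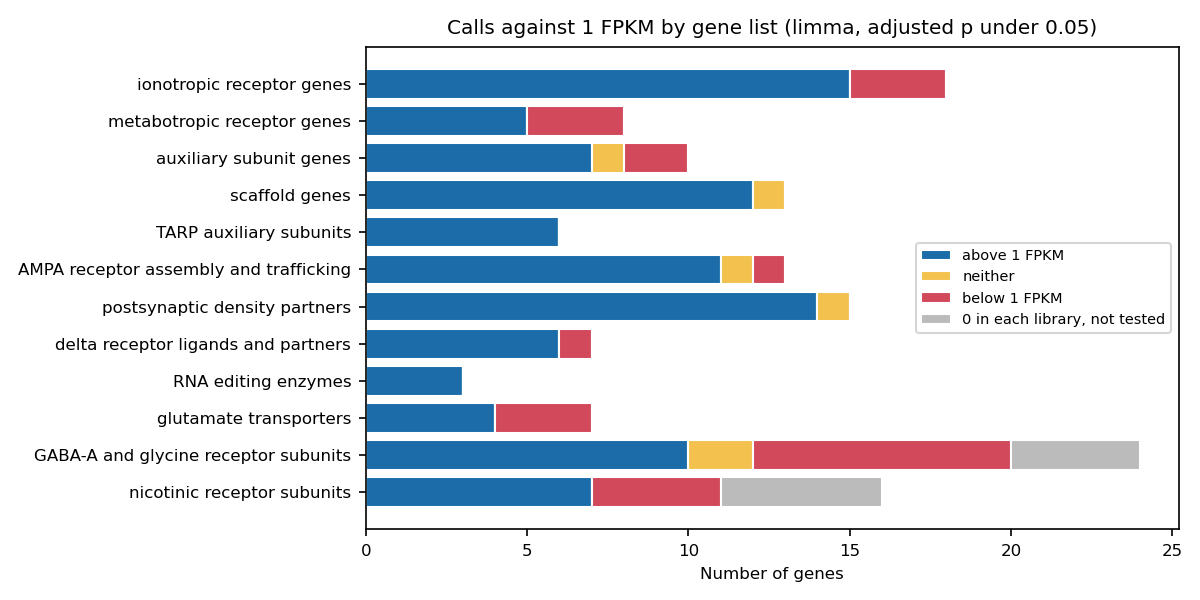
Number of genes in each list that lay above 1 FPKM, below it, in neither call or at 0 in each library (limma, adjusted p under 0.05); the first 4 bars are the 49 members, the next 6 their pathway lists and the last 2 the receptors of other transmitters. The scaffold bar holds 12 of 13 genes above 1 FPKM, the GABA-A and glycine receptor bar 10 of 24.

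Of 69 pairs of related genes, 61 (88.4%) differed past the threshold in limma's two-sided test (Benjamini-Hochberg adjusted), against 90.7% of 14554 pairs of neighbouring table entries, a similar share. Receptors of other transmitters were counted in the same way, and 15 of 18 ionotropic glutamate subunits lay above 1 FPKM. Of 24 GABA-A and glycine receptor subunits 10 did, with 4 listed at 0 in each library. Of 16 nicotinic subunits 7 did, with 5 at 0. Over all tested entries the share was 63.7%. Genes at 0 were not tested but stay in the counts of 24 and 16, which lowers those shares. Median mean levels were 5.05 FPKM for the ionotropic glutamate subunits, against 0.732 and 0.0817 FPKM for those lists, genes at 0 included. Summed levels lay closer together. They were 172.85, 158.71 and 171.5 FPKM in libraries 1 to 3 for the ionotropic glutamate subunits, 110.7, 124.37 and 114.54 for the GABA-A and glycine subunits and 63.77, 73.51 and 69.62 for the nicotinic subunits. The highest genes of both lists reached the range of the glutamate subunits. The top GABA-A or glycine receptor gene had a mean of 33.4 FPKM, and of the nicotinic genes Chrna4 had 25.7 ± 1.94 and Chrnb2 24.4 ± 1.2 FPKM. The lists were not tested against each other.

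Library 2 differed from the others in several members and, on the deposited scale, over the table as a whole. Among the 39 members with a mean of at least 1 FPKM, 16 were lowest in library 2, against 21.5% of 11662 entries, and 16 were highest in it, against 62.1% of the entries. These counts depended on the scaling. With libraries rescaled to a common sum of the entries that stayed at or below 10000 FPKM in every library, 26 members were lowest, against 42.2% of the entries. On that scale 7 were highest, against 34.4%. A common sum over all entries, whose total was lowest in library 2, was not used. With a common upper quartile, 20 were lowest, against 34.3% of the entries, and 9 highest, against 44.6%. The median log2 deviation of library 2 from the mean of libraries 1 and 3 was 0.01 for the members, against 0.13 for all entries; with libraries rescaled to a common sum, the members' median was -0.13, against -0.01 for all entries. Grin2b deviated by -0.97, lower than all but 0.995% of the entries, Grm3 by -0.47, Shank1 by -0.46, Gria2 by -0.46 and Shisa7 by -0.43, each outside the range of -0.39 to 0.41 that held the middle of the entries from the 5th to the 95th percentile. Gsg1l, at 0.57, lay outside at the upper end. By construction, 5% of all entries lie beyond each end of this range. In the same library the summed level of the 8 commissural markers was lower, at 289 FPKM in library 2, against 355 in library 1 and 367 in library 3. Of these 8 markers 4 were lowest in library 2, among them Robo3 with 74.5 FPKM, against 118 and 119, and Dcc with 48.1, against 68.0 and 71.6, while 3 were highest in it, among them Barhl2 with 31.5, against 25.0 and 27.9. The summed level of the 8 progenitor markers was higher, at 1211 FPKM in library 2, against 955 and 984, and most of that sum lay in Fabp7, with 686 FPKM, against 492 and 514, and Vim, with 428, against 376 and 389. Of these 8 markers 7 were highest in library 2, some by little (Hes5 with 17.57 FPKM, against 17.54 and 13.19). The medians of the lists, on the log2 scale, were 5.02 in library 2, against 5.06 and 5.17, for the commissural markers and 4.32, against 4.28 and 4.11, for the progenitor markers. Library 2 was looked at singly because earlier results of these data had shown it apart for long transcripts. The part of transcript length, or of either list, in the deviations of these genes was not tested. Of the calls named above, leaving out library 2 ended those of Cnih3 and Shisa9 below 1 FPKM. For neither gene did library 2 stand alone at an end (Cnih3 0.29, 0 and 0 FPKM, Shisa9 0.43, 0.48 and 0.70). Leaving it out also turned the direction of Grin2b over Grin3b, a pair that was not called.

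**Figure D5:**
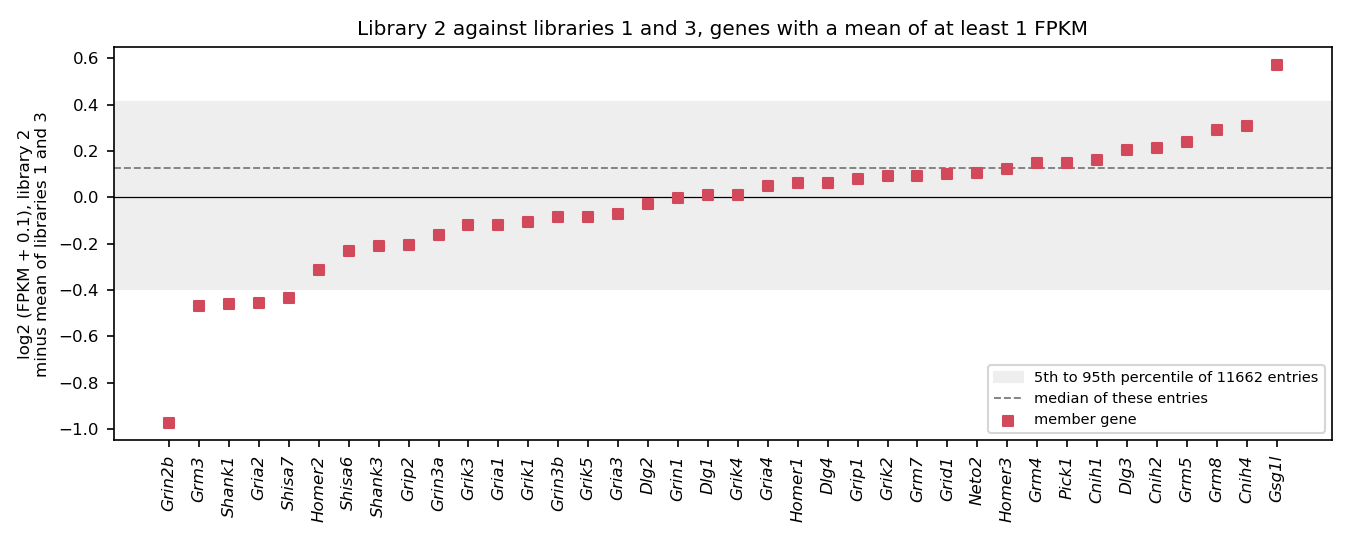
Log2(FPKM + 0.1) in library 2 minus the mean of libraries 1 and 3 for 38 of the 39 genes with a mean of at least 1 FPKM (squares), with the 5th to 95th percentile (grey) and the median (dashed, 0.13) of 11662 table entries. Grin2b lies lowest at -0.97, and Grm3, Shank1, Gria2 and Shisa7 also lie under the grey band.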

How the data were processed

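Polyadenylated RNA of 3 libraries was sequenced with paired reads of 50 bp after stranded preparation, per the labels' protocols. Per the submitters' processing notes, FastQC, Trimmomatic 0.22 and STAR were used with the build rn6. What computed the FPKM values, with which annotation and strand setting, and how multi-mapped reads were handled, is not given in the sources used here, so levels of close paralogs are uncertain. The authors deposited FPKM values in 1 table, with a column per library; no counts or intervals for counting error can be had from it. For each pair of libraries, 4 to 7 entries had more than 1 FPKM in both, 0 in the remaining library and a ratio within 1.5-fold. Their ratio had a median of 0.877 to 1.01, near 1 by construction, and whether it reflects the worth of 1 read is not known.

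Members were found by gene symbol ignoring case (2 symbols stood in capitals); each had 1 entry. All 191 list genes matched. Members and lists were chosen with earlier results of these data known. Of the members, 47 are named and 2 are counted but not reported here singly, as are some list genes; of each other list the 4 highest and 2 lowest genes (all where it has 6 or fewer) are named, some only within counts; Slc1a6 falls outside this and was added once values had been seen. Values were used as log2(FPKM + 0.1). The tools were R 4.3.3 with limma 3.58.1 and statmod 1.5.0. One-sided limma tests against 1 FPKM, in either direction, ran over 17611 entries with a robust prior and trend. Pairs were tested on log2 ratios within libraries, two-sided, the prior being estimated together with 14554 pairs of neighbouring table entries with means of at least 0.1 FPKM, and the trend following the lower level of a pair. Benjamini-Hochberg adjustment was used at a threshold of 0.05. With 3 libraries an exact test on 1 gene could not pass it. The fits were tested on simulated data. Alternatives were pseudocounts of 0.01 and 1, common sums or upper quartiles, other filters, levels of 0.5 and 5 FPKM, another prior, a 1.5-fold margin and each library left out. Common sums left out the entries above 10000 FPKM in any library. Figures were drawn with matplotlib 3.10.9 in Python 3.11.15. Positions were not used, since the reference names belong to another build.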

Additional observations from a re-analysis of the deposited data

How the results depend on the processing

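The count of members above 1 FPKM was 38 to 39 with a library left out and 39 under either pseudocount, both rescalings, the other prior and the other filters; it was 24 against a level of 5 FPKM. Members below 1 FPKM numbered 6 to 8 with a library left out, 4 against a level of 0.5 FPKM and 23 against 5 FPKM. Of 69 pairs, 60 to 61 differed with a library left out, 58 by at least 1.5-fold, and 34 of the 41 pairs whose genes both had a mean of at least 1 FPKM, where fewer pairs were tested. The median level of the 49 members on the log2 scale was 2.38, and 2.61 with a pseudocount of 1, which raises every value. The members' median deviation in library 2 was 0.01, turned to -0.13 with a common sum and -0.0834 with a common upper quartile, and was 0.0486 for members with a mean of at least 5 FPKM; the cause was not tested. Members lowest in library 2 numbered 16, and 26 with a common sum; those highest in it numbered 16, and 7 with a common sum and 9 with a common upper quartile. Among members with a mean of at least 5 FPKM, where fewer were counted, 9 were lowest. Of single results, 46 of 49 members and 65 of 69 pairs kept their call under every alternative run for them. The exceptions were Grik1 (without library 3, adjusted p = 0.147 in limma's Benjamini-Hochberg adjusted test), Cnih3 and Shisa9 (without library 2), Grik2 over Grik3 and Grik3 over Grik5 (at least 1.5-fold), Homer1 over Homer3 (under the other prior, 1.5-fold, and without library 1 or 3), and Grin2b over Grin3b, whose log2 ratio ran between -0.36 and 0.10 with a library left out and was 0.10 without library 2. No paired analysis was possible because the series has 1 group. The number of libraries, 3, limits the precision, and FPKM gives no depth.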
